A study of Drosophila melanogaster with 12 samples.

Results

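SOD2i embryos of Drosophila melanogaster were compared with control embryos. The comparison contrasts 6 of the 12 libraries of the series, chosen by their genotype labels: 3 libraries labelled SOD2i and 3 labelled Control. The filter, the scaling and the spread between replicates were taken from all 12 libraries. All 17868 genes of the count table entered, and 9863 of them held enough reads to be tested. The labels give both groups by these words only. The name SOD2i is taken to mean RNA interference with Sod2. Its construct and driver, and what Control embryos carry, are not given in the sources used here. The remaining libraries carry the genotypes Drp1SG and Drp1SG;SOD2i, the latter called the double genotype below. What the letters SG mean is not stated. Each of the 3 replicates of a genotype was a pool of 70 to 100 hand-sorted embryos, with cellularizing and gastrulating stages in equal parts. Cages stood at 28 C, and eggs were collected either for 1 h, then aged for 1.5 to 2 h, or for 2.5 to 3 h where a genotype laid few eggs. Which genotype had which window is not given, so window, line background and genotype cannot be told apart in any result below. Nothing says that replicates came from separate crosses, so p-values measure only the spread between these pools.

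Sod2 encodes the manganese-dependent superoxide dismutase found inside mitochondria. The enzyme turns superoxide that leaks from the respiratory chain into hydrogen peroxide, which peroxiredoxins and the thioredoxin and glutathione systems then remove. Sod1, loaded with copper by its chaperone Ccs, does the same in the cytosol, and Sod3 is secreted. At cellularization the embryo still holds much RNA laid down by the mother, while its own genome is being switched on and the first tissues are being patterned.

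The RNA that the interference targets was low in every SOD2i library. Sod2 (Dmel_CG8905) stood at 50.6, 50.3 and 51.6 CPM (read counts scaled to library size and composition) in the control libraries and at 1.76, 2.34 and 1.38 CPM in those of SOD2i. The groups lie far apart, and the log2 fold change was -4.80 ± 0.19 (± is the standard error for fold changes here, edgeR adjusted p = 2.79e-08). Drp1, the GTPase that divides mitochondria, stood at 35.1, 34.2 and 38.8 CPM in control and at 24.1, 23.5 and 18.6 CPM in SOD2i, so that each SOD2i library was below each control library. Its log2 fold change was -0.71 ± 0.14 (adjusted p = 0.00335). Next to Sod2 along the chromosome, Arp53D, an actin-related protein gene, went from a mean of 6.68 to 2.91 CPM (log2 fold change -1.20, adjusted p = 0.00727).

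Between 61757756 and 75817981 reads per library fell in genes, and 11001 to 11125 genes had a read. TMM scaling factors, which correct for composition, were 0.973 to 1.03 in control and 0.900 to 0.958 in SOD2i. Replicates of a group correlated at r = 0.983 to 0.992 across genes. Over 48 short-lived transcripts laid down by the mother, mean log2 CPM (a maternal index) was 5.71, 5.65 and 4.80 in control and 6.09, 4.80 and 5.66 in SOD2i, so the groups overlap, and Control replicate 3 and SOD2i replicate 2 are the low ones. A stage index (segment polarity and Hox genes minus early zygotic genes) was -1.63, -1.54 and -1.07 in control and -1.80, -1.51 and -1.86 in SOD2i, also with overlap. The libraries held RNA of early embryonic genes such as slam, sna, twi, fog, eve and ftz. By contrast, nullo, Sry-alpha and bnk, which mark cellularization, were listed at 0 in all 12 libraries. Whether these zeros come from counting is not known. Eggshell and yolk genes together summed to 2.19 to 2.63 CPM in control and 1.33 to 1.70 CPM in SOD2i, with 9 of 17 at or under 3 counts in each of the 6 libraries.

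SOD2i and control differed in 2286 of 9863 genes at an adjusted p under 0.05, which is 23.2% of the genes tested. Of these, 1019 (10.3%) were higher and 1267 (12.8%) were lower in SOD2i. A change of at least 2-fold was called in 885 genes (8.97%), 307 higher and 578 lower. The 3 SOD2i libraries did not overlap the 3 control libraries in 3366 genes (34.1%), among them 2229 of the 2286 called. In pooled whole embryos, fewer cells of a type and less RNA per cell cannot be told apart. With upper-quartile scaling in place of TMM, which moves the median log2 fold change of all genes from 0.00 to -0.07, the split became 632 higher and 1435 lower. When each of the 6 libraries was left out in turn, 552 of the higher and 783 of the lower genes were called every time.

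The direction of the calls varied with the level of expression. Among 1966 genes above 100 CPM, 353 were higher and 50 lower, whereas among 1981 genes of 1 to 10 CPM, 209 were higher and 466 lower. Large changes lay at low levels. Above 100 CPM, 5 genes rose at least 2-fold and no gene fell as far, against 110 that rose and 237 that fell between 1 and 10 CPM. Between 10 and 100 CPM, 40 rose and 37 fell that far. Among 2348 genes under 1 CPM, 152 rose and 304 fell that far, the most of any range in either direction. Upper-quartile scaling leaves 135 higher and 79 lower above 100 CPM, so an excess of higher genes remains there but its size depends on the scaling. Of 369 long noncoding RNAs tested, 55 were higher and 27 lower, against 947 higher and 1223 lower of 9296 protein-coding genes. Whether the split differs between the classes was not tested.

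**Figure D1:**
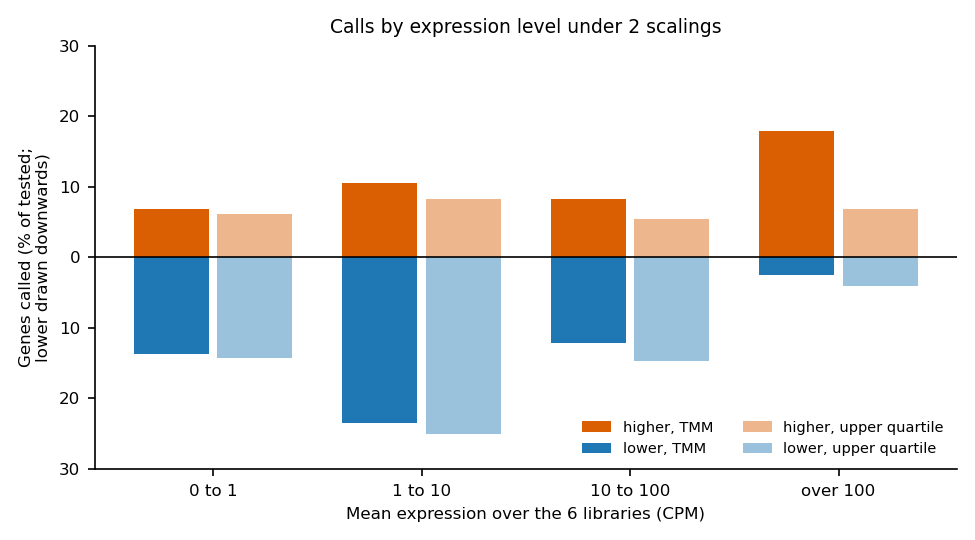
Share of tested genes called higher (upward bars) or lower (downward bars) in SOD2i against control, in 4 ranges of mean expression over the 6 libraries, under TMM (dark) and upper-quartile scaling (light). Above 100 CPM, 353 genes are higher and 50 lower of 1966 with TMM, and 135 and 79 with upper-quartile scaling.

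Superoxide and peroxide defence genes moved in both directions. Of 14 tested, 3 were higher and 5 lower, Sod2 included, 57.1% called against 23.2% of all genes. The median log2 fold change was -0.25 against 0.00 over all genes tested. Sod3, the secreted superoxide dismutase, stood at 45.3, 48.1 and 38.7 CPM in control and at 163, 159 and 165 CPM in SOD2i. No library of SOD2i came near the control range, and the log2 fold change was 1.88 ± 0.10 (adjusted p = 2.06e-07). Cytosolic Sod1 was measured at 124, 132 and 114 CPM in control and at 149, 143 and 174 CPM in SOD2i, a small shift without overlap (0.33 ± 0.09, adjusted p = 0.0167). The Sod1 call ended without Control replicate 3 (adjusted p = 0.0814) or SOD2i replicate 3 (adjusted p = 0.0774), and without either of them the list had 1 higher and 4 lower genes. Ccs, which loads Sod1 with copper, went the other way. Its mean fell from 4.33 to 2.75 CPM (log2 fold change -0.65).

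The tested peroxiredoxins, which reduce hydrogen peroxide, were lower or not called. Prx5, another member of the family, has no fold change in the authors' deposited table, and no result is given for it here. Prx2540-2 stood at 20.4, 18.8 and 23.8 CPM in control and at 8.76, 13.96 and 9.76 CPM in SOD2i, lower in each SOD2i library than in any control library (log2 fold change -0.96 ± 0.22, adjusted p = 0.00834). Prx2540-1, a close relative whose reads may be shared with it, fell by 0.63 ± 0.15 (adjusted p = 0.0112). Jafrac2, a secreted member, had 26.3, 25.6 and 26.3 CPM in control and 20.6, 20.2 and 20.8 CPM in SOD2i. That is a tight fall of 0.34 ± 0.08 on the log2 scale (adjusted p = 0.0119). Mitochondrial Prx3 was at 115, 121 and 118 CPM against 103, 111 and 107 CPM and was not called (-0.14 ± 0.06, adjusted p = 0.14). Catalase (Cat), which removes peroxide in peroxisomes, was at 95.2, 105 and 95.04 CPM against 92.7, 109 and 98.7 CPM, ranges that overlap (0.02 ± 0.08, adjusted p = 0.859).

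**Figure D2:**
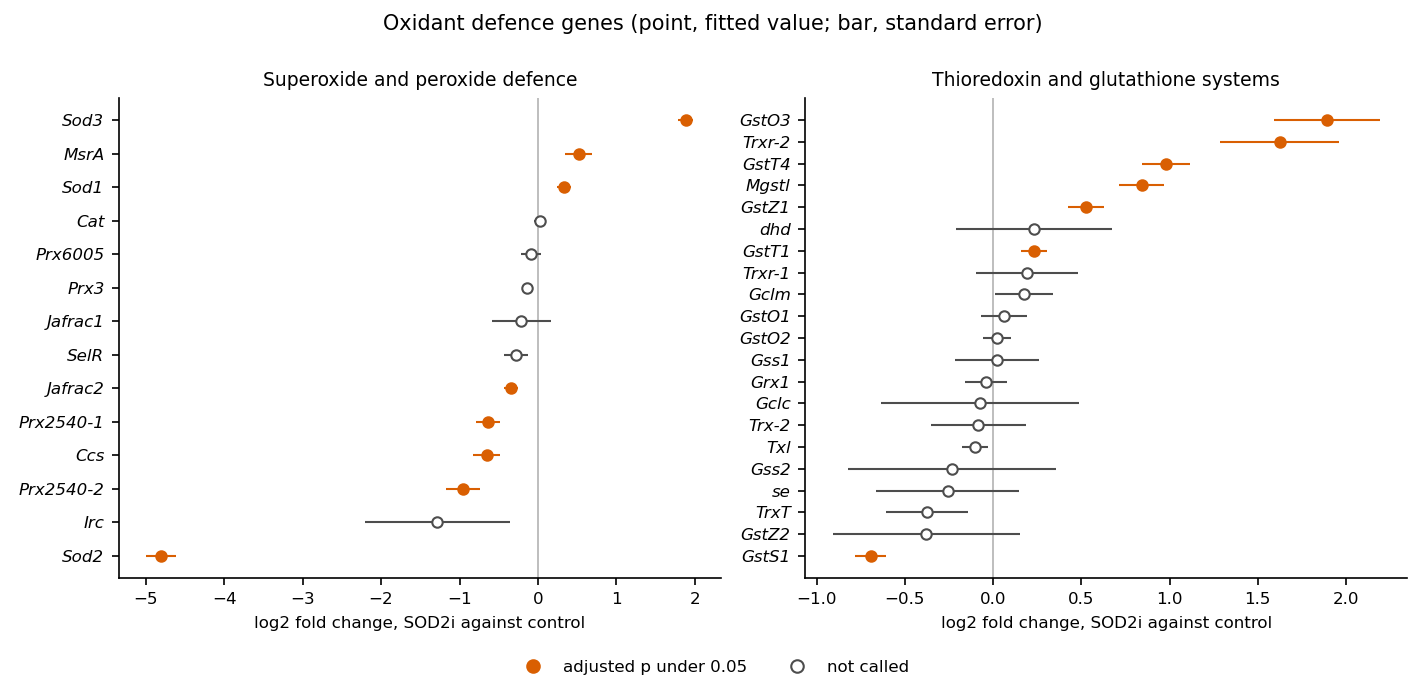
Fitted log2 fold changes of SOD2i against control (points) with their standard errors (bars) for the tested genes of 2 defence lists, filled where the adjusted p was under 0.05. Sod2 lies at -4.80 and Sod3 at 1.88, Cat lies near 0, and 6 genes of the thioredoxin and glutathione list are called higher and 1 lower.

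In the thioredoxin and glutathione systems, 6 of 21 tested genes were higher and 1 was lower, 33.3% called against 23.2% of all genes. The median log2 fold change was 0.02, and without SOD2i replicate 1 there were 2 lower genes. Several glutathione transferases, which couple glutathione to oxidised or foreign molecules, were among the higher ones. GstT4 stood at 6.23, 6.85 and 6.66 CPM in control and at 11.2, 15.2 and 12.6 CPM in SOD2i (0.98 ± 0.13, adjusted p = 3.24e-04). Mgstl, the microsomal form, went from 10.5, 9.17 and 9.37 to 16.95, 15.2 and 19.9 CPM (0.84 ± 0.13, adjusted p = 6.09e-04). Both genes thus had separate ranges, as did GstS1, the abundant sigma-class transferase, in the other direction. GstS1 was at 232, 241 and 246 CPM in control and at 129.7, 149.6 and 165 CPM in SOD2i (log2 fold change -0.69 ± 0.09, adjusted p = 1.69e-04). The mitochondrial thioredoxin reductase gene Trxr-2 was near its detection limit, at 0.0634, 0.0886 and 0.0666 CPM against 0.243, 0.250 and 0.197 CPM (1.62 ± 0.34, adjusted p = 0.00478). The cytosolic Trxr-1 spread widely in both groups and was not called (0.19 ± 0.29, adjusted p = 0.689). Glutathione synthesis genes Gclc and Gclm were not called either (adjusted p = 0.946 and 0.49).

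Within the delta and epsilon classes of glutathione transferases, 5 of 23 genes were higher and 2 lower, 30.4% called against 23.2% of all genes. Without Control replicate 1 the counts were 5 and 5, and without Control replicate 2, SOD2i replicate 1 or SOD2i replicate 3 they were 4 and 1. GstD9 was at 10.2, 9.82 and 12.9 CPM in control and at 28.6, 28.9 and 32.6 CPM in SOD2i (1.45 ± 0.12, adjusted p = 6.77e-06). GstE10 had no read in control and 1.52, 0.671 and 0.267 CPM in SOD2i, at least 16.4-fold higher by a floor of 3 counts in the smallest control library, and at least 9.39-fold without SOD2i replicate 1. GstE7 fell from 14.6, 15.9 and 13.6 to 9.34, 9.86 and 8.20 CPM (log2 fold change -0.69 ± 0.10, adjusted p = 6.04e-04). GstD1, often used as a readout of the Keap1-cnc oxidant response, was uneven, at 1.35, 4.68 and 1.71 CPM against 7.23, 1.64 and 3.16 CPM, and was not called (adjusted p = 0.47). Its activator cnc, the fly Nrf2, was at 125, 126 and 97.5 CPM against 147, 126 and 133 CPM (adjusted p = 0.159). The inhibitor Keap1 was at 133, 153 and 159 CPM against 129, 188 and 141 CPM (adjusted p = 0.87), ranges that overlap. Of 20 genes of Keap1-cnc and JNK signalling, 1 was higher and 2 lower, the lower ones being bsk, the fly JNK, and Ask1, a kinase upstream of it. The list had 2 higher genes without Control replicate 1 or SOD2i replicate 2, and 1 higher and 1 lower without Control replicate 2, Control replicate 3 or SOD2i replicate 1. The bsk call ended without Control replicate 3 (adjusted p = 0.052), SOD2i replicate 1 (0.0506) or SOD2i replicate 3 (0.0758). The Ask1 call ended without Control replicate 2 (adjusted p = 0.0813) or SOD2i replicate 3 (0.0857).

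The shares of called genes differed between the lists of mitochondrial genes outside defence. Of 18 genes of fission, fusion and mitophagy, 1 was higher and 2 lower, a share of 16.7% against 23.2% of all genes; the list had 3 higher and 2 lower without Control replicate 1, and 3 and 4 without SOD2i replicate 2. Its higher call was lost without any other 1 of the 6 libraries, with 2 or 3 lower. Besides Drp1, the lower one was Mul1, a ubiquitin ligase of the outer membrane, at 16.9, 19.2 and 20.9 CPM in control and 13.8, 14.53 and 13.8 CPM in SOD2i (-0.43 ± 0.10, adjusted p = 0.00749). The fusion genes Marf and Opa1 were not called (0.05 ± 0.10 and -0.09 ± 0.07, adjusted p = 0.795 and 0.423), nor was the mitophagy kinase Pink1 (0.37 ± 0.17, adjusted p = 0.147). The 15 mitochondrially encoded genes gave 0 calls by edgeR, 2 at an unadjusted p under 0.05, 1 by DESeq2 and 1 by limma (1 by edgeR without Control replicate 2, Control replicate 3 or SOD2i replicate 2), with a median log2 fold change of 0.13. Their share of reads was 8.49% to 12.1% in control and 9.78% to 11.5% in SOD2i. Nuclear subunits of the respiratory chain gave 3 higher and 3 lower of 33 in complex I, and 1 higher and 2 lower of 36 in complexes II to V. The higher call in complexes II to V was lost without Control replicate 2, Control replicate 3, SOD2i replicate 2 or SOD2i replicate 3, and 1 lower gene was left without SOD2i replicate 1. The complex I subunit gene ND-B16.6 went from 73.7, 80.7 and 85.9 to 57.2, 56.9 and 60.7 CPM (-0.46 ± 0.07, adjusted p = 7.17e-04), and ND-13B from 16.7, 18.2 and 19.4 to 11.4, 13.9 and 11.7 CPM (-0.55 ± 0.10, adjusted p = 0.00244). The 3 higher calls in complex I were lost under upper-quartile scaling and without SOD2i replicate 3, and fell to 1 without Control replicate 1.

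In the main fit, the calls in carbon metabolism were higher ones. Above 100 CPM, calls over all genes were also mostly higher, 353 against 50 lower. Whether the direction in these lists departs from that of genes of like level was not tested. The citrate cycle had 5 such genes of 18, 27.8% against 23.2% of all genes, with a median log2 fold change of 0.18. It had 3 under upper-quartile scaling, without Control replicate 3 or without SOD2i replicate 3, and 2 in a fit of the 2 groups alone. kdn, the citrate synthase, stood at 252, 224 and 204 CPM in control and at 345, 341 and 341 CPM in SOD2i. The SOD2i libraries were nearly equal and all above control (0.59 ± 0.07, adjusted p = 1.36e-04). Scsalpha1, a subunit of succinyl-CoA ligase, went from 166, 171 and 158 to 200.2, 201 and 212 CPM (0.31 ± 0.07, adjusted p = 0.00773). In the list of glycolysis and lactate genes 3 of 16 were higher, 18.8% called against 23.2% of all genes. A fit of the 2 groups alone called 0 genes of this list. There were 2 lower genes added without Control replicate 1 or SOD2i replicate 2, and 4 higher and 1 lower without SOD2i replicate 1. Among the 3 higher genes, fbp, which runs the opposite reaction to phosphofructokinase in sugar synthesis, was at 6.15, 7.76 and 6.93 CPM against 9.87, 9.56 and 11.2 CPM (0.55 ± 0.12, adjusted p = 0.00608), and Mpc1, a subunit of the mitochondrial pyruvate carrier, rose by 0.39 ± 0.09 (adjusted p = 0.00763). The call of the third, Ald1, ended in a fit of the 2 groups alone (adjusted p = 0.102). It also ended without Control replicates 2 or 3 or SOD2i replicate 3 (adjusted p = 0.0527, 0.0762 and 0.058).

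Stress response genes were mixed. Of 21 genes of the ATF4 pathway and mitochondrial stress, 4 were higher and 6 lower, 47.6% called against 23.2% of all genes. The counts were 2 and 5 without Control replicate 2, 2 and 4 without Control replicate 3, and 2 and 3 without SOD2i replicate 3. The regulator crc, the fly ATF4, was at 137, 147 and 179 CPM against 147, 183 and 166 CPM (adjusted p = 0.559). Xrp1, a stress-inducible transcription factor, was at 9.54, 8.72 and 8.57 CPM against 6.14, 8.71 and 7.44 CPM (adjusted p = 0.284). The ranges overlap in both. The mitochondrial chaperones Hsc70-5 and Trap1 were lower. Hsc70-5 went from 90.6, 104 and 104 to 82.1, 71.4 and 65.4 CPM (-0.45 ± 0.09, adjusted p = 0.0037), and Trap1 from 35.5, 40.5 and 40.1 to 29.8, 31.5 and 27.5 CPM (-0.39 ± 0.08, adjusted p = 0.00548). Nmdmc, a mitochondrial enzyme of folate metabolism, fell by 0.81 ± 0.18 (adjusted p = 0.00656). Gadd45, a stress-inducible growth arrest gene, had at most 0.0499 CPM in a control library and 0.379, 0.359 and 0.365 CPM in SOD2i (adjusted p = 0.00131). Cytosolic heat shock genes gave 0 higher and 4 lower of 18, 22.2% called against 23.2% of all genes, with a median log2 fold change of -0.40. Their summed level was 6401 to 7110 CPM in control and 6953 to 7561 CPM in SOD2i. Of the 4, only Hsp70Aa, a gene with near-identical copies, was called with every library left out in turn (-1.30 ± 0.28, adjusted p = 0.00624). The list had 1 lower call without Control replicate 2, 2 without Control replicate 3 or SOD2i replicate 3, and 1 higher and 3 lower without SOD2i replicate 1.

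**Figure D3:**
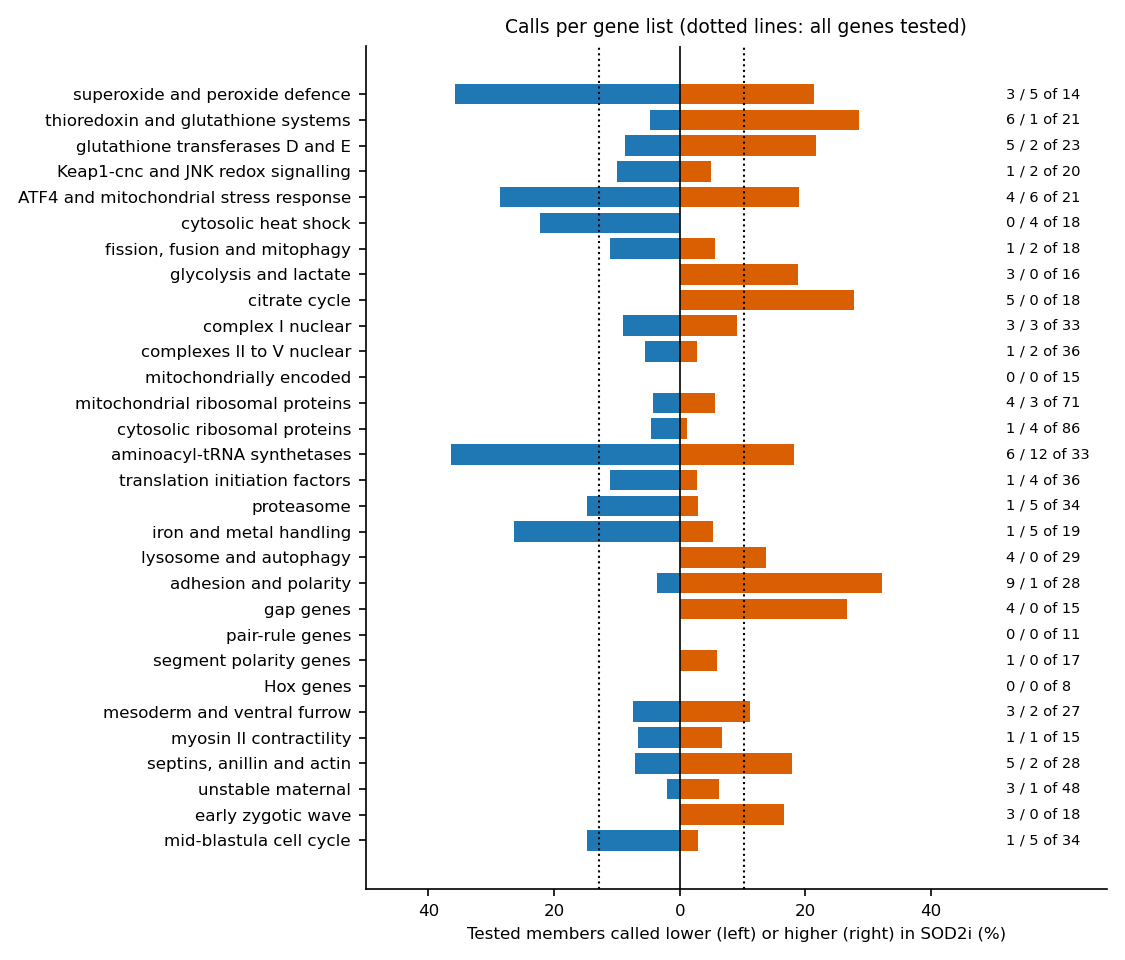
Share of the tested members of 30 gene lists called higher (right) or lower (left) in SOD2i against control, with the counts beside each bar as higher / lower of tested; dotted lines mark the shares over all genes tested, 10.3% and 12.8%. Defence genes and aminoacyl-tRNA synthetases reach far on both sides, and mitochondrially encoded, pair-rule and Hox genes have no bar.

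Aminoacyl-tRNA synthetases, which charge tRNAs with amino acids, had the highest share of calls among the lists of the protein synthesis machinery. It was 54.5% of 33 genes, against 23.2% of all genes, with 12 lower and 6 higher. Their summed level did not fall, at 1914 to 2036 CPM in control and 2049 to 2132 CPM in SOD2i. AspRS-m and IleRS, with means of 409 and 311 CPM in control, were among the higher ones. The lower calls hold both cytosolic and mitochondrial enzymes. IleRS-m, the mitochondrial isoleucine enzyme, stood at 8.88, 10.3 and 9.36 CPM in control and at 5.66, 5.63 and 4.44 CPM in SOD2i (-0.86 ± 0.12, adjusted p = 3.12e-04). MetRS went from 17.6, 22.4 and 20.8 to 14.3, 11.1 and 10.6 CPM (-0.76 ± 0.14, adjusted p = 0.00186). SerRS, alpha-PheRS and ArgRS fell by 0.44, 0.50 and 0.40 on the log2 scale. GlyRS was the higher gene whose call held in every fit run, at 31.0, 36.0005 and 29.9 CPM against 46.1, 42.9 and 59.2 CPM (0.61 ± 0.13, adjusted p = 0.00448). Upper-quartile scaling left 12 lower and 1 higher, and a fit of the 2 groups alone left 6 lower and 1 higher. Without Control replicate 2 the count was 6 lower and 3 higher, without SOD2i replicate 3 it was 6 and 2, and without Control replicate 3 it was 8 and 2.

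Among ribosomal, initiation factor and proteasome genes, the large changes were in paralogues, variant copies of a core subunit, several of which are known for use in the germline. RpL37b fell from 1.98, 2.04 and 3.41 to 0.546, 0.765 and 0.561 CPM (-1.99 ± 0.25, adjusted p = 2.03e-04). It was among the 5 calls in 86 cytosolic ribosomal protein genes, 1 higher and 4 lower, or 1 and 2 without Control replicate 3 or SOD2i replicate 3, and 2 and 3 without SOD2i replicate 1. eIF4E3, a cap-binding factor of the testis, stood at 2.85, 2.30 and 3.01 CPM in control and at 0.106, 0.156 and 0.0561 CPM in SOD2i (-4.67 ± 0.36, adjusted p = 4.85e-06). Its relative eIF4E5 rose from 3.61, 3.69 and 4.43 to 7.48, 9.80 and 6.78 CPM (1.04 ± 0.17, adjusted p = 9.97e-04). Of 34 proteasome genes, 1 was higher and 5 lower, 17.6% called against 23.2% of all genes, and 3 of the 5 are paralogues. The counts were 1 and 8 without Control replicate 1, 3 and 4 without Control replicate 2, and 4 and 4 without SOD2i replicate 1. The higher call was lost without Control replicate 3 or SOD2i replicate 3. Rpt6R fell from 4.09, 3.72 and 5.64 to 0.576, 0.874 and 0.393 CPM (-2.87 ± 0.29, adjusted p = 3.38e-05). Prosbeta2R2 fell by 1.69 ± 0.18 (adjusted p = 5.78e-05), and Rpt3R is given below. Reads of paralogues with similar sequence may have been assigned to either copy. The median log2 fold change was 0.02 for cytosolic ribosomal proteins, -0.02 for the proteasome and 0.01 for 71 mitochondrial ribosomal proteins, of which 4 were higher and 3 lower, or 2 and 2 without Control replicate 2 or SOD2i replicate 3, 3 and 5 without Control replicate 1, and 4 and 5 without SOD2i replicate 2.

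The genes that rose furthest, by the rule for named genes, included several with large and even changes across the libraries. Arc1, whose product forms capsids like those of retrotransposons, stood at 0.682, 0.680 and 0.433 CPM in control and at 44.2, 55.1 and 39.6 CPM in SOD2i (log2 fold change 6.27 ± 0.21, adjusted p = 1.01e-08). Every SOD2i library was far above control. Its paralogue Arc2 followed at a lower level, from 0.729, 0.975 and 0.316 to 4.22, 1.92 and 3.24 CPM (2.204 ± 0.38, adjusted p = 0.00161). Dmel_CG8799, an ABC transporter gene, went from 2.16, 1.80 and 1.53 to 42.8, 38.5 and 40.7 CPM (4.47 ± 0.15, adjusted p = 1.01e-08). DNaseII, an acid nuclease of the lysosome, went from 18.7, 16.0 and 20.8 to 137, 173 and 118 CPM (2.95 ± 0.15, adjusted p = 1.32e-07). These are shifts of many fold with no overlap.

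kek1, an inhibitor of the EGF receptor, stood at 42.1, 45.4 and 57.8 CPM in control and 248, 435 and 359 CPM in SOD2i (2.84 ± 0.26, adjusted p = 1.71e-05). Pde8, a phosphodiesterase that breaks down cyclic nucleotides, was almost constant in control, at 13.0, 13.1 and 13.5 CPM, and rose to 80.4, 108 and 76.5 CPM (2.74 ± 0.13, adjusted p = 1.19e-07). Drep1, related to the inhibitor of the caspase-activated nuclease, went from 9.68, 6.69 and 8.54 to 107, 82.5 and 105 CPM (3.56 ± 0.17, adjusted p = 1.07e-07). In each of these genes the groups are well apart. The glycosyltransferase gene Ugt36E1 rose by 3.22 ± 0.13, tbc by 2.96 ± 0.18, and pst, known for resistance to a fly virus, by 4.02 ± 0.25. vir-1, a gene induced by virus infection, stood at 1.71, 1.54 and 1.91 CPM against 11.7, 11.3 and 11.3 CPM (2.73 ± 0.14, adjusted p = 1.32e-07).

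Further genes among the higher ones encode surface and junction proteins. side, a guide for motor axons, rose from 1.85, 1.86 and 2.38 to 10.2, 11.8 and 9.53 CPM (2.37 ± 0.27, adjusted p = 8.2e-05). Fas3, an adhesion molecule of septate junctions, went from 2.82, 3.00 and 3.38 to 11.2, 12.4 and 9.05 CPM (1.83 ± 0.19, adjusted p = 4.00e-05). vari, a scaffold of the same junctions, rose from 17.8, 25.0 and 19.7 to 51.3, 54.9 and 75.7 CPM (1.54 ± 0.15, adjusted p = 3.28e-05), and all 3 genes had separate ranges. Sema2b, a secreted semaphorin, rose by 1.65 ± 0.13, Dhit, a regulator of G protein signalling, by 2.17 ± 0.18, jtb by 2.04 ± 0.15, the RNA-binding bru3 by 1.50 ± 0.10 and the serine protease gene Sp7 by 1.52 ± 0.15. One gene of the rule, DIP-beta, a neuronal surface protein, rests on a single library: its SOD2i libraries held 1.17, 1.23 and 47.7 CPM against 0.333, 0.414 and 0.649 CPM in control. Its log2 fold change was 5.17 ± 1.27 (adjusted p = 0.0124) with SOD2i replicate 3 and 1.38 without it, and the call ended without Control replicate 2 (adjusted p = 0.0507), with limma and voom (3.25, adjusted p = 0.233) and in a fit of the 2 groups alone (adjusted p = 0.0741).

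**Figure D4:**
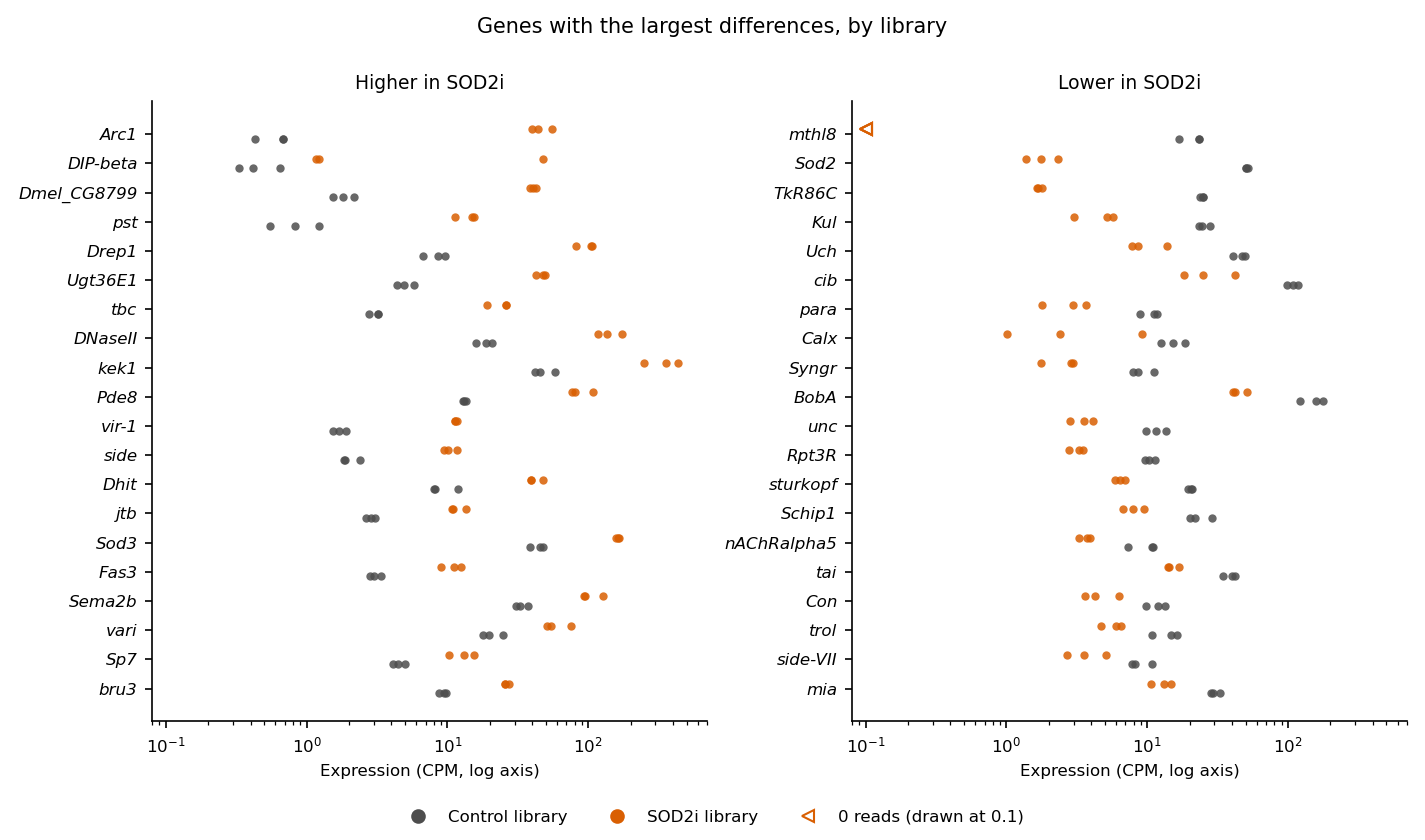
Expression of the 20 named genes with the largest rise (left) and the 20 with the largest fall (right) in SOD2i against control, 1 point per library on a log axis of CPM. Control (grey) and SOD2i (orange) libraries separate in every row, by rule; DIP-beta shows 1 SOD2i library at 47.7 CPM and the others near 1 CPM, and mthl8 had 0 reads in SOD2i.

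Of the genes that fell, the methuselah-type receptor gene mthl8 was present at 16.9, 23.3 and 23.2 CPM in control libraries. SOD2i libraries held none of its reads, which with 3 counts in the smallest of them as the floor makes it at least 452-fold lower. The double genotype, which carries SOD2i as well, held 20.8, 24.5 and 24.8 CPM of it, and Drp1SG held 22.1, 18.8 and 21.1 CPM. The loss of mthl8 was thus seen in the SOD2i libraries only among the 4 genotypes, and the difference between the effect of SOD2i alone and in the double genotype passed the interaction test (adjusted p = 8.47e-08). In the same family mthl15 fell from 2.52, 3.15 and 3.596 to 1.11, 1.37 and 1.09 CPM (-1.37 ± 0.16, adjusted p = 1.22e-04), and mthl1, also known as mist, a receptor for the ventral furrow signal Fog, rose from 109, 108 and 108 to 129, 150.4 and 137 CPM (0.36 ± 0.07, adjusted p = 0.00286).

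TkR86C, a neuropeptide receptor, stood at 24.8, 23.8 and 24.7 CPM in control and at 1.64, 1.79 and 1.68 CPM in SOD2i, with hardly any spread in either group (-3.84 ± 0.19, adjusted p = 1.29e-07). The sodium channel gene para went from 11.7, 11.1 and 8.92 to 1.79, 3.68 and 2.96 CPM (-1.91 ± 0.27, adjusted p = 3.54e-04), and the acetylcholine receptor gene nAChRalpha5 from 10.7, 7.27 and 11.0 to 3.71, 3.93 and 3.30 CPM (-1.40 ± 0.22, adjusted p = 7.16e-04). Syngr, a synaptic vesicle protein gene, fell by 1.87 ± 0.20 and unc, needed in ciliated sensory neurons, by 1.73 ± 0.18. Calx, a sodium-calcium exchanger, was uneven in SOD2i, at 9.13, 1.01 and 2.41 CPM against 15.2, 18.4 and 12.5 CPM in control. Its log2 fold change of -1.88 ± 0.58 (adjusted p = 0.0359) became -3.14 without SOD2i replicate 1. The Calx call ended without Control replicates 1, 2 or 3 (adjusted p = 0.0585, 0.0989 and 0.0528) or SOD2i replicate 3 (adjusted p = 0.139).

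Cytoskeletal, protease and matrix genes followed. cib, an actin monomer-binding protein gene, stood at 109, 117 and 98.3 CPM in control and at 41.7, 18.3 and 25.0 CPM in SOD2i (-1.93 ± 0.24, adjusted p = 1.43e-04). Uch, a ubiquitin hydrolase gene, fell from 46.7, 49.3 and 40.8 to 13.9, 7.82 and 8.66 CPM (-2.17 ± 0.18, adjusted p = 1.04e-05). Kul, a membrane metalloprotease gene, fell from 27.7, 24.6 and 23.1 to 5.22, 5.71 and 3.00 CPM (-2.44 ± 0.20, adjusted p = 9.17e-06). Ranges of control and SOD2i were separate in all of them. trol, the fly perlecan, fell by 1.29 ± 0.18, Con, an adhesion protein of muscles and motor axons, by 1.31 ± 0.19, and side-VII of the sidestep family by 1.25 ± 0.21. tai, a coactivator of the ecdysone receptor, went from 41.8, 34.5 and 40.2 to 14.2, 16.9 and 14.1 CPM (-1.36 ± 0.14, adjusted p = 3.40e-05). sturkopf, a lipid droplet protein gene, went from 20.9, 20.4 and 19.4 to 5.90, 6.93 and 6.39 CPM (-1.66 ± 0.09, adjusted p = 2.86e-07). Rpt3R, a proteasome paralogue, fell by 1.71 ± 0.13, Schip1 by 1.55 ± 0.15 and mia, a factor of the testis transcription machinery, by 1.24 ± 0.12. BobA, of the Bearded family of Notch signalling inhibitors, went from 121, 158 and 179 to 40.8, 50.9 and 42.2 CPM (-1.77 ± 0.15), a value that may include reads of near-identical copies.

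Unnamed genes reached similar sizes. CG14186 was at 0.0634, 0.0591 and 0.0666 CPM in control and at 12.5, 16.3 and 10.7 CPM in SOD2i (7.67 ± 0.35, adjusted p = 7.82e-08), the largest rise among unnamed genes of the rule. lncRNA:CR43857 rose by 4.17 ± 0.40 and CG32581 by 4.14 ± 0.27. CG13032 fell from 12.9, 12.4 and 15.3 to 0.394, 0.187 and 0.225 CPM (-5.65 ± 0.28, adjusted p = 1.32e-07), the antisense RNA asRNA:CR44095 by 3.73 ± 0.28 and CG30010 by 2.80 ± 0.16. Whether counting used strand is not stated, so reads of the antisense RNA and of the gene opposite cannot be told apart.

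In 4 genes the RNA was present in one group and at or under 3 counts in each library of the other. Besides mthl8 these were CR10102, lncRNA:CR43807 and CG7309, all present in SOD2i. CR10102, a pseudogene, lies between Arc1 and Arc2 in the RefSeq gene order and stood at 0.0475, 0.0148 and 0.0166 CPM in control and 6.52, 7.30 and 6.01 CPM in SOD2i. It rose together with both Arc genes, while the next genes outward, CG8617 and Tfb1, were not called (log2 fold change 0.10 and 0.03, adjusted p = 0.51 and 0.761). CG7309 had no read in control and 1.61, 1.78 and 1.73 CPM in SOD2i, at least 34.1-fold higher. Its neighbours CG14070, lncRNA:CR45724 and CG14069 also had no read in control and reached means of 0.803, 0.183 and 0.356 CPM in SOD2i (adjusted p = 1.02e-04, 0.00121 and 3.63e-04). lncRNA:CR43807 had no read in control and 1.59, 1.95 and 1.70 CPM in SOD2i, at least 35.0-fold higher, and CG12517 beside it rose from no read to 0.370 CPM (adjusted p = 0.00186). Drp1SG held both CG7309 and lncRNA:CR43807, at 1.30, 1.23 and 1.86 CPM and at 1.04, 0.868 and 0.936 CPM, and the double genotype held no read of either. Over all tested genes, 29.0% of the higher genes had a higher neighbour, against 19.3% of all genes tested, and 35.2% of the lower genes had a lower neighbour, against 23.7%.

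The embryonic patterning lists differed in their share of called genes, which was 23.2% over all genes tested. Called were 18.5% of the ventral furrow list, 13.3% of the myosin II list and 5.88% of the segment polarity list. Among 11 pair-rule genes there were 0 calls by edgeR, 2 at an unadjusted p under 0.05, and 0 by DESeq2 or limma, with 1 by edgeR without Control replicate 2 or SOD2i replicate 1. Among 8 Hox genes there were 0 by edgeR, at an unadjusted p under 0.05, by DESeq2 or by limma, and 1 by edgeR without SOD2i replicate 1. The segment polarity list had 1 higher gene of 17, ptc, the Hedgehog receptor, and up to 2 higher or 2 lower without a library (Control replicate 2 or 3, SOD2i replicate 1 or 3). eve was at 34.0, 43.6 and 34.5 CPM against 37.6, 49.5 and 43.7 CPM, and ftz at 206, 262 and 234 against 196, 288 and 236 CPM (adjusted p = 0.411 and 0.902). In the ventral furrow list 3 of 27 genes were higher and 2 lower (2 and 1 without Control replicate 3, 2 and 0 without SOD2i replicate 3, 5 and 0 without SOD2i replicate 1), and sna, twi, fog and T48 were not called (adjusted p = 0.829, 0.381, 0.451 and 0.851). Myosin II and its regulators gave 1 higher and 1 lower of 15, of which the higher was lost without Control replicate 1, Control replicate 2 or SOD2i replicate 2 and the lower without SOD2i replicate 1 or SOD2i replicate 3, with zip and sqh, the heavy and regulatory light chains, at log2 fold changes of -0.06 ± 0.08 and -0.04 ± 0.07. The gap gene list had 4 of 15 higher, or 26.7% called against 23.2% of all genes, and a median log2 fold change of 0.22. Without SOD2i replicate 2 there were 2 higher, and without Control replicate 2 there were 3 higher and 1 lower. btd, a head gap gene, stood at 30.5, 31.6 and 30.6 CPM in control and 41.4, 49.8 and 41.9 CPM in SOD2i (0.52 ± 0.08, adjusted p = 9.85e-04). ems, another, went from 27.9, 24.6 and 27.4 to 32.9, 37.5 and 36.7 CPM (0.42 ± 0.08, adjusted p = 0.00306). Both kept their calls under upper-quartile scaling, which left 2 of the 4.

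Adhesion and polarity genes were higher in 9 of 28 cases and lower in 1, 35.7% called against 23.2% of all genes. Their median log2 fold change was 0.23. baz, the fly Par3, was at 255, 225 and 225 CPM in control and 356, 362 and 356 CPM in SOD2i (0.61 ± 0.06, adjusted p = 3.98e-05). Fas2, an adhesion molecule of axons, went the other way, from 54.0, 44.7 and 51.9 to 30.4, 27.6 and 27.2 CPM (-0.82 ± 0.11, adjusted p = 2.70e-04). Upper-quartile scaling leaves 4 higher and 2 lower, a fit of the 2 groups alone 2 and 1, and leaving out SOD2i replicate 2 gives 8 and 2. Among actin and septin genes, 5 of 28 were higher and 2 lower, 25.0% called against 23.2% of all genes. They were 2 and 3 without Control replicate 3, 5 and 4 without SOD2i replicate 1, 3 and 2 without SOD2i replicate 2 or SOD2i replicate 3, and 3 and 3 under upper-quartile scaling. cpb, a subunit of actin capping protein, rose from 105, 109 and 118 to 167, 174 and 187 CPM (0.67 ± 0.07, adjusted p = 4.51e-05). capt, which recycles actin monomers, rose from 244, 246 and 215 to 292, 293 and 351 CPM (0.41 ± 0.08, adjusted p = 0.00381). Sep4, a septin gene, fell from 9.07, 9.25 and 7.32 to 5.73, 2.95 and 2.25 CPM (-1.23 ± 0.26, adjusted p = 0.00572).

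Short-lived maternal transcripts gave 3 higher and 1 lower of 48 (8.33% against 23.2% of all genes; 6 and 1 without Control replicate 1 or SOD2i replicate 2) and a median log2 fold change of 0.15 that turned to -0.05 without Control replicate 3 and -0.10 without SOD2i replicate 1. fs(1)K10, an oocyte polarity gene, was the clearest exception, at 94.6, 79.4 and 69.9 CPM in control and 201, 198 and 220.2 CPM in SOD2i (1.34 ± 0.10, adjusted p = 3.25e-06). stau, which anchors maternal RNAs, rose from 438, 381 and 374 to 538, 566 and 570.0 CPM (0.49 ± 0.07, adjusted p = 6.14e-04). cort, a female meiosis activator of the anaphase complex, fell from 3.07, 3.19 and 3.20 to 1.94, 1.22 and 1.07 CPM (-1.16 ± 0.23, adjusted p = 0.00399). Of 34 regulators of the cell cycle at this stage, 1 was higher and 5 lower, 17.6% called against 23.2% of all genes. They were 4 and 4 without Control replicate 1, 2 and 4 without Control replicate 2, 4 and 6 without SOD2i replicate 1, 3 and 4 without SOD2i replicate 2, and 1 and 3 without SOD2i replicate 3. mei-41 (fly ATR), the checkpoint kinase that slows the last syncytial divisions, was at 60.6, 61.0 and 61.4 CPM against 42.9, 42.4 and 42.9 CPM, with little spread in either group (-0.51 ± 0.09, adjusted p = 0.00119). tefu (fly ATM) fell from 51.3, 46.3 and 45.6 to 32.8, 27.5 and 20.9 CPM (-0.82 ± 0.17, adjusted p = 0.00458), and fzr, which ends mitotic cycles, rose from 104, 105 and 99.6 to 128, 142 and 129.9 CPM (0.37 ± 0.06, adjusted p = 9.01e-04).

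Metal handling genes gave 1 higher and 5 lower of 19, 31.6% called against 23.2% of all genes. Without SOD2i replicate 3 the counts were 1 and 3, and the higher call was lost without any other 1 of the 6 libraries. MTF-1, the metal-responsive transcription factor, stood at 36.6, 39.3 and 39.2 CPM in control and 22.3, 19.0 and 15.9 CPM in SOD2i (-1.01 ± 0.12, adjusted p = 1.12e-04). Alas, the first enzyme of haem synthesis, fell from 18.1, 19.5 and 17.9 to 10.8, 10.1 and 8.97 CPM (-0.89 ± 0.11, adjusted p = 1.39e-04), and the copper importer gene Ctr1A by 0.64 ± 0.13 (adjusted p = 0.00397). None of these had overlapping groups. In calcium handling, RyR, the calcium release channel of the endoplasmic reticulum, rose from 19.9, 22.7 and 18.9 to 49.0, 61.4 and 51.2 CPM (1.39 ± 0.16, adjusted p = 1.12e-04), and Stim, the calcium sensor of the same store, from 252, 262 and 266 to 316, 351 and 352 CPM (0.38 ± 0.06, adjusted p = 0.00129). Trpm, a cation channel, fell from 46.2, 46.7 and 44.6 to 35.6, 29.0 and 25.9 CPM (-0.60 ± 0.14, adjusted p = 0.00818).

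Ecdysone and activin genes were called in 10 of 27 cases, 5 each way, or 3 higher and 5 lower without Control replicate 1 or Control replicate 3 and 3 and 6 without SOD2i replicate 2. Eip74EF, an ecdysone-induced transcription factor, rose from 0.824, 0.975 and 0.616 to 2.24, 2.36 and 2.84 CPM (1.62 ± 0.22, adjusted p = 3.00e-04), whereas ImpE1, another ecdysone-inducible gene, fell from 5.56, 7.11 and 6.34 to 1.18, 1.67 and 1.32 CPM (-2.19 ± 0.16, adjusted p = 3.87e-06). The steroid synthesis gene nvd fell by 1.13 ± 0.19 (adjusted p = 0.00113). Imaginal disc growth factors, secreted relatives of chitinases, were higher in the 3 of 6 members that held enough reads to be tested. Idgf2 went from 31.9, 43.1 and 39.8 to 67.6, 80.8 and 90.5 CPM (1.06 ± 0.12, adjusted p = 8.2e-05). Among lysosomal and autophagy genes, 4 of 29 were called, 13.8% against 23.2% of all genes, each higher. Without SOD2i replicate 3 there were 3 higher and 1 lower. Npc2a, a sterol carrier of the lysosome, rose from 34.6, 33.7 and 29.5 to 65.8, 63.9 and 80.1 CPM (1.10 ± 0.10, adjusted p = 1.51e-05). ref(2)P, the fly p62, was at 272, 229 and 188 CPM against 336, 287 and 334 CPM (0.47 ± 0.13, adjusted p = 0.0178). The ref(2)P call ended without Control replicates 2 or 3 or SOD2i replicates 1 or 3 (adjusted p = 0.0616, 0.0754, 0.059 and 0.079).

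Detoxification enzymes were called in both directions. Of 38 tested cytochrome P450 genes, 6 were higher and 7 lower, 34.2% called against 23.2% of all genes. The counts were 3 and 5 without Control replicate 3, and 3 and 7 without SOD2i replicate 3. Of 18 glycosyltransferases 4 were higher and 2 lower, 33.3% called, and 1 lower was left without any 1 of the 6 libraries other than SOD2i replicate 1. Cyp6g1, known for insecticide resistance, fell from 3.01, 2.45 and 3.21 to 0.394, 0.296 and 0.309 CPM (-3.11 ± 0.22, adjusted p = 2.52e-06). Cyp6t3 fell from 2.08, 1.96 and 2.51 to 0.212, 0.281 and 0.393 CPM (-2.87 ± 0.23, adjusted p = 7.03e-06). Ugt49C1 rose from 0.206, 0.207 and 0.366 to 1.94, 3.28 and 1.46 CPM (3.10 ± 0.34, adjusted p = 7.66e-05), and Ugt49B1 from 2.95, 2.63 and 3.16 to 8.13, 7.54 and 7.31 CPM (1.39 ± 0.16, adjusted p = 1.13e-04). The groups do not overlap in any of these 4 genes.

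Neuron markers were called in 7 of 10 tested cases, 70.0% against 23.2% of all genes, 5 higher and 2 lower, at low levels. There was 1 lower without Control replicate 1, Control replicate 3, SOD2i replicate 1 or SOD2i replicate 3. elav was at 0.0951, 0 and 0 CPM in control and at 1.18, 1.26 and 1.43 CPM in SOD2i (adjusted p = 6.01e-04), and brp, of the synaptic active zone, went from 1.68, 1.54 and 1.33 to 6.31, 7.04 and 7.09 CPM (2.17 ± 0.18, adjusted p = 9.72e-06). Syt1 fell from 0.856, 0.753 and 0.816 to 0.152, 0.312 and 0.211 CPM (-1.84 ± 0.43, adjusted p = 0.00958). Summed over the 12 genes of the list, control held 86.9 to 98.9 CPM and SOD2i 93.6 to 112 CPM, with Syx1A listed at 0 and VGlut at up to 2 counts. The part of neurons in the results above was not tested. Muscle markers gave 0 higher and 3 lower of 11, 27.3% called against 23.2% of all genes. Their sum was 822 to 921 CPM in control and 509 to 577 CPM in SOD2i, most of it Tm1, a tropomyosin gene also used outside muscle, at 857, 798 and 894 CPM against 491, 556 and 510.4 CPM (-0.71 ± 0.06, adjusted p = 1.14e-05). Among immunoglobulin-domain surface proteins of the DIP and dpr families, 4 of 27 were higher and 6 lower. DIP-theta fell from 8.40, 5.58 and 10.4 to 0.0606, 0.250 and 0.126 CPM (-5.79 ± 0.52, adjusted p = 1.60e-05, -6.4 without SOD2i replicate 2), while DIP-eta rose from 0.158, 0.414 and 0.200 to 2.94, 4.76 and 4.08 CPM (3.91 ± 0.42, adjusted p = 5.42e-05).

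SOD2i was also compared directly with Drp1SG. The control libraries enter this comparison only through the filter, scaling and spread shared by all libraries. The stage index was -1.23 to -0.85 in Drp1SG and -1.86 to -1.51 in SOD2i, without overlap. The maternal index was 6.01 to 6.37 in Drp1SG, above control (4.80 to 5.71) and overlapping SOD2i (4.80 to 6.09). The part of embryo stage in the calls that involve Drp1SG was not tested. SOD2i against Drp1SG called 2887 genes (29.3%), 1326 higher in SOD2i (13.4%) and 1561 lower (15.8%). Without Drp1SG replicate 2 the count was 1868. Drp1SG against control called 18.6% of genes, 9.72% higher and 8.83% lower, and shares the control libraries with SOD2i against control. By the rule for naming, in 83 genes SOD2i and Drp1SG departed from control in opposite directions and differed from each other, 31 higher and 52 lower in SOD2i. The most extreme was kek1, which held 0.701, 1.56 and 1.39 CPM in Drp1SG against its 248 to 435 CPM in SOD2i (log2 fold change SOD2i against Drp1SG 8.14, adjusted p = 5.62e-08). hpRNA:CR18854, a hairpin RNA that gives rise to small interfering RNAs, stood at 51.1, 42.3 and 37.8 CPM in control, at 11.2, 12.5 and 8.73 CPM in SOD2i and at 84.1, 102 and 109 CPM in Drp1SG. DNaseII and CG14186 were high in SOD2i alone of the 2 single genotypes, with 19.1, 18.6 and 18.7 CPM and at most 0.112 CPM in Drp1SG, and differed between them by 2.92 and 7.56 on the log2 scale (adjusted p = 2.61e-07 and 9.73e-08). For Drep1 and TkR86C the single genotypes were not called different (-0.42 and 0.03, adjusted p = 0.0581 and 0.91).

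The double genotype against Drp1SG gives a second view of SOD2i, in 6 libraries that the comparison with control does not contrast. Filter, scaling and spread were shared by all 12 libraries in 1 fit, so the calls of the 2 comparisons are not independent. The double genotype and Drp1SG also differed in the stage index, at -1.70 to -1.28 and -1.23 to -0.85. Their mean maternal index was 5.81 and 6.24, with ranges that nearly touch. The part of embryo stage in this comparison was not tested. The double genotype against Drp1SG called 1072 genes (10.9%), 498 higher (5.05%) and 574 lower (5.82%). Leaving out any 1 of the 6 libraries lowered the count to between 571 (without double genotype replicate 2) and 703 (without double genotype replicate 3). In 224 genes both comparisons were called in the same direction, 120 higher and 104 lower. These are 9.8% of the calls of SOD2i against control and 20.9% of those of the double genotype against Drp1SG. In 268 genes the calls had opposite signs, more than the 224 of the same sign. Over all genes tested, SOD2i against control called 10.3% higher and 12.8% lower. Whether either overlap departs from what these shares would give was not tested. Of the 23 higher genes named by size, 11 were higher there as well, 8 were lower and 4 were not called. Of the 23 lower genes named by size, 4 were lower (Sod2 among them), 5 were higher and 14 were not called.

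DNaseII, Pde8 and CG14186 were higher with SOD2i in both pairs of genotypes. The interaction test, which compares the SOD2i effect in the 2 pairs, was not passed for DNaseII (adjusted p = 0.225) and CG14186 (0.465) and was passed for Pde8 (0.018). Sod2 passed it as well (0.78 ± 0.23, adjusted p = 0.0414), with a smaller fall in the double genotype against Drp1SG. Sod2 held 2.51, 3.54 and 3.08 CPM in the double genotype and 1.76, 2.34 and 1.38 CPM in SOD2i. DNaseII held 115, 98.4 and 122 CPM in the double genotype (double genotype against Drp1SG 2.57, adjusted p = 1.08e-06), Pde8 held 73.4, 69.5 and 86.8 CPM (2.04, adjusted p = 2.88e-06) and CG14186 held 9.32, 8.55 and 8.27 CPM (6.97, adjusted p = 3.34e-07). kek1 and Sema2b were also higher, by 6.17 and 3.89. Among the lower genes, sturkopf fell in both, to 8.97, 8.72 and 8.91 CPM in the double genotype (-1.22, adjusted p = 1.22e-05). Other genes went the opposite way. Sod3 held 58.2, 53.04 and 46.6 CPM in the double genotype, below the 122, 134 and 134 CPM of Drp1SG (-1.31, adjusted p = 1.24e-05). Drep1 held 37.04, 32.8 and 33.7 CPM (-1.92, adjusted p = 2.19e-05) and tbc 4.94, 5.41 and 5.28 CPM (-1.57, adjusted p = 1.44e-04). para stood at 12.9, 14.1 and 12.0 CPM, above its control range, where Drp1SG held 1.95, 3.46 and 3.44 CPM (2.13, adjusted p = 4.01e-04).

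**Figure D5:**
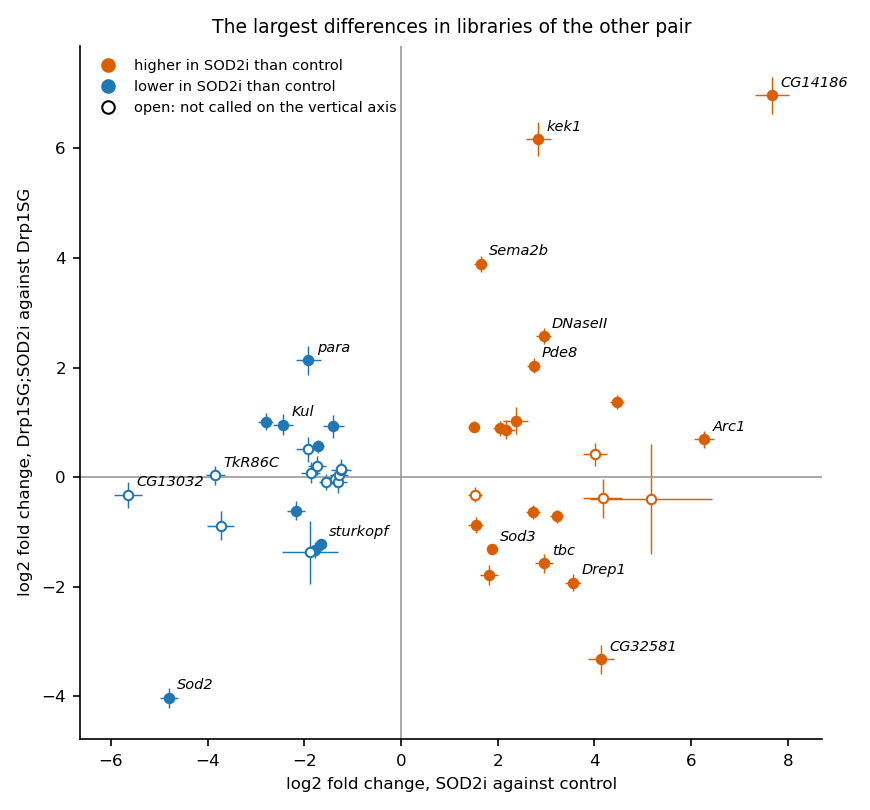
Log2 fold changes of the genes named by size in SOD2i against control (horizontal) and in Drp1SG;SOD2i against Drp1SG (vertical). The axes contrast different libraries but share the estimate of the spread. Bars are standard errors, open points were not called on the vertical axis, and mthl8 is left out. CG14186, kek1, Sema2b, DNaseII and Pde8 are higher on both axes, Sod2 is lower on both, and Sod3, Drep1, tbc and CG32581 lie below 0 on the vertical axis.

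The authors' deposited table for SOD2i against control gives an adjusted p for 11137 genes, 1708 of them under 0.05, 708 higher and 1000 lower. Of the 2286 genes called here, 1646 had an adjusted p under 0.05 and the same sign in the authors' deposited table, and 0 had the opposite sign. The others did not reach 0.05 there, and 1 of them, DIP-beta, had no adjusted p. Among them were Sod1 (DESeq2 adjusted p = 0.08), Trxr-2 (0.0964), Calx (0.152), Eip75B (0.0856) and Ask1 (0.0854). Both analyses start from the same libraries, so the shared signs are no independent check.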

How the data were processed

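Raw counts of reads per gene, as deposited by the authors, were the input to every test here. The authors also deposited a table of their own comparisons with log2 fold changes and p-values, used only where it is named. Per the labels' protocols, poly(T) beads captured RNA from 200 ng of total RNA. Tools listed in the submitters' processing notes, without roles, are featureCounts 1.5.2, HISAT2 2.1.0, Bowtie2 2.2.4, DESeq2 and Trimmomatic. Genome build and strand setting are not given in the sources used here.

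After filterByExpr and TMM scaling, edgeR 4.0.16 (R 4.3.3) was run with its quasi-likelihood test, all 12 libraries, 1 mean per genotype, Benjamini-Hochberg over 9863 genes, called at adjusted p under 0.05. Log2 CPM used a prior count of 2. The common biological coefficient of variation was 0.1755. A count of 3 is 0.0421 to 0.0499 CPM, and floors cover counting error only. Gene order comes from RefSeq. Same-numbered control and SOD2i replicates correlated at 0.216, -0.19 and -0.267 in their deviations from the group means. The highest value was 0.475, between Control replicate 3 and SOD2i replicate 2. Deviations within a group of 3 constrain each other, so these values cannot decide whether same-numbered pools were prepared together. The main fit used no pairing. Alternatives were DESeq2 1.42.0, limma 3.58.1 with voom, other scalings and filters, a replicate block, a maternal covariate, only the 2 groups, and leaving out libraries; leaving out 2 together and the double genotype against Drp1SG were added after seeing the data. The procedure was tested on simulated data.

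The members and gene lists were chosen with earlier results of these data known. Named genes are Sod2, Drp1, up to 20 per direction by fold change (called, 2-fold, mean 5 CPM, no overlap) plus 3 unnamed, up to 6 members per list by adjusted p and others for their role, genes present in 1 group only with neighbours, and up to 8 per direction opposite to Drp1SG.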

Additional observations from a re-analysis of the deposited data

Results flagged for a closer look

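The following genes departed from control in opposite directions in SOD2i and Drp1SG, and the difference between the 2 genotypes was itself called by edgeR. SOD2i and Drp1SG did not overlap in the stage index, and the part of embryo stage was not tested. Values are log2 fold changes of SOD2i against Drp1SG. Higher in SOD2i were kek1 at 8.14, Sema2b at 4.5, CG11263 at 3.73, CG43897 at 3.69, snRNA:U1:82Eb, a copy of a small nuclear RNA whose reads may be shared with other copies, at 3.53, lncRNA:CR43870 at 3.14, the glutathione transferase gene GstE11 at 1.70 and the arginine methyltransferase gene Art2 at 1.61.

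Lower in SOD2i were CG7191 at -4.26, hpRNA:CR18854 at -3.19, CG10362 at -2.76, CG10936 at -2.33, Pxn, a haem peroxidase of the extracellular matrix, at -2.08, Drp1 at -1.93, Eip75B, an ecdysone-induced nuclear receptor, at -1.78, and Ca-alpha1T, a calcium channel gene, at -1.46. Drp1 is the gene for which the genotype Drp1SG is named. It stood at 71.0, 104 and 77.1 CPM in Drp1SG and at 35.1, 34.2 and 38.8 CPM in control (log2 fold change 1.22). Whether Drp1SG embryos carry an added copy of Drp1 is not given. The call of Eip75B against control ended in a fit of the 2 groups alone (adjusted p = 0.0952).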

How the results depend on the processing

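The 2286 calls against control became 2031 to 2700 under other scalings, filters and tests, 2095 with a replicate block, 3358 with the maternal index as a covariate (1547 higher, 1811 lower) and 1263 in a fit of the 2 groups alone. Leaving out 1 library gave 1587 to 2369, and leaving out Control replicate 3 and SOD2i replicate 2 together gave 1847. SOD2i against Drp1SG gave 2396 to 3590 calls under the other alternatives (2627 with the replicate block), and 1868 to 2962 without 1 library, the lowest without Drp1SG replicate 2. The double genotype against Drp1SG gave 2441 calls with the maternal covariate, 1848 in a fit of the 2 groups alone, 882 with the replicate block and 571 to 703 without 1 library. The causes were not tested. Of the results for single named genes under all alternatives, 4810 stayed as they were, called or not called, 462 lost a call, 45 gained one and 0 reversed. The 4810 thus include genes that were not called in any case. Of list medians, 883 kept their sign and 108 changed it. The 1 CPM filter left no member of the trypsin and Jonah protease list, so that median was not run. A fit of the 2 groups alone ended the calls of Jafrac2 (adjusted p = 0.0597), Mul1 (0.0603), fbp (0.0636), Mpc1 (0.0545), Ald1 (0.102), Sep4 (0.0574), ptc (0.0585), Sod1 (0.106), Calx (0.133), DIP-beta (0.0741), bsk (0.0708), Ask1 (0.0819), ref(2)P (0.0801) and Eip75B (0.0952), among genes named in the text, and upper-quartile scaling that of ptc (0.0766). Counts under 3 per library limit what can be said of genes near 0.05 CPM.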
